A study of Mus musculus with 23 samples.

Results

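The mitochondrial ribosome is the machine that translates the few messages of the mitochondrial genome, all of which encode subunits of the respiratory chain and ATP synthase. Its RNA is made in the mitochondrion, but every one of its proteins is encoded in the nucleus, made in the cytosol and imported. The large subunit joins amino acids at the peptidyl transferase centre, and the small subunit reads the message at the decoding centre. Skeletal muscle, whose fibres depend on mitochondria to different degrees, needs both subunits to keep its respiratory chain supplied.

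The genes considered here were chosen by a rule on names, set with earlier results of these data known. The rule took all genes whose symbol on the array platform, or its current form, is Mrpl or Mrps followed by a number. It left out Mrpl39, which lies inside the rearranged chromosome segment, and Mrps6, which lies on the same chromosome outside it. This gave 74 genes measured by 130 probes, of 19057 genes and 45281 probes on the array. The large subunit had 47 of these genes (82 probes), and the small subunit had 27 (48 probes). Of the 74 genes, 41 had 1 probe and 33 had several, up to 7. A gene with several probes is given below by its brightest expressed probe. Mrpl41 and Mrps36 had no probe, and Mrpl40, on chromosome 16 but outside the segment, was kept as a member (log2 change -0.027 in Ms3Yah and 0.0064 in Ts2Yah against diploid littermates).

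Gastrocnemius, a calf muscle made mostly of fast fibres, was profiled in adult C57BL6/J mice of 2 lines with 1 Illumina MouseWG-6 v2.0 array for each mouse. Ms3Yah mice carry 1 copy of the Hspa13-App segment of chromosome 16 (6 mice), and were set against their own diploid littermates (6 mice). Ts2Yah mice carry 3 copies of the same segment (6 mice; the study's text calls them Ts3Yah), and were set against the diploid littermates of that line (5 mice). Both rearrangements were made by Cre/loxP recombination in embryonic stem cells and are present in every cell, so neither is restricted to muscle. The labels give no sex or age for any mouse. A further diploid mouse of the Ts2Yah line was set aside by the authors and was not analysed here.

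Arrays correlated with each other at between 0.973 and 0.995, and each detected between 16945 and 18669 probes. All 5 markers of skeletal muscle fibres were detected on all 23 arrays, with summed signals of 119800 to 142500 in Ms3Yah mice, 123800 to 136600 in their diploid littermates, 130200 to 137200 in Ts2Yah mice and 127900 to 139000 in theirs. A probe was taken as expressed in a line when any of its arrays exceeded a signal of 89.8, and all 130 member probes passed this in both lines. A stricter measure is the scanner's detection p below 0.05: by it, 106 of the 130 probes were detected on all 23 arrays and 7 on none. The brightest probe was detected on every array for 69 of the 74 genes. The other 5 were Mrpl57 (22 arrays), Mrpl45 (10), Mrps14 (6), Mrpl32 (2) and Mrpl19 (0), and no fold change is given for these.

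Many nuclear genes for mitochondrial proteins are driven by Gabpa, an ETS-family activator whose own gene lies inside the rearranged segment. The sequence it binds has the core CCGGAAG, and the promoters of the members were searched for it. RefSeq promoters (GRCm38.p6, 250 bases before to 50 after each start) were at hand for 65 of the 74 members, 41 of the large and 24 of the small subunit. CCGGAAG on either strand was found in 26 of these 65 members (40%; 15 large, 11 small), in 8.86% of 32851 mouse promoters and in 12.9% of 17492 protein-coding genes. The first copy lay within 100 bases upstream of the start in 16 of the 26. The 100 bases before the start are given for 5 members described below that hold a copy, with the copy, or its complement CTTCCGG, in capitals, and for Mrpl46, which holds none.
Mrps22, chr9:98601680-98601779, minus strand: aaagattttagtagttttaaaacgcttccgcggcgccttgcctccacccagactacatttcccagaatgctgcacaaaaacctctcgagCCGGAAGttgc
Mrps18a, chr17:46110904-46111003, plus strand: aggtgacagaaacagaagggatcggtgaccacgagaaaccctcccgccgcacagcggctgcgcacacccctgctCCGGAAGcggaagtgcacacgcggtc
Mrpl3, chr9:105053168-105053267, plus strand: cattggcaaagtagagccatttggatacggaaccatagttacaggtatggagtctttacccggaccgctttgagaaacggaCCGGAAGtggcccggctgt
Mrpl58, chr11:115403652-115403751, plus strand: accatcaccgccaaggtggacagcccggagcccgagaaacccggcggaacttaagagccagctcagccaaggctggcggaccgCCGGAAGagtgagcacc
Mrpl48, chr7:100583131-100583230, minus strand: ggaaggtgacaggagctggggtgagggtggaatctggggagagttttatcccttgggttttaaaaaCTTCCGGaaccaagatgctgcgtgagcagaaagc
Mrpl46, chr7:78783090-78783189, minus strand: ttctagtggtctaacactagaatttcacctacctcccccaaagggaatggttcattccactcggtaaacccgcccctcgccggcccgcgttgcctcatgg
The stretch of Mrpl48 belongs to 1 of its 4 annotated starts.

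In the plot of changes by subunit, each gene is a point whose height is its change: the mean log2 signal of the Ms3Yah or Ts2Yah mice minus that of their diploid littermates. Ms3Yah muscle had 56 of the 74 members above 0, and Ts2Yah muscle had 33. No member changed past a Benjamini-Hochberg adjusted p of 0.05 in either line, so the members are described below by their sizes, their spread and their counts at the unadjusted p.

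**Figure D1:**
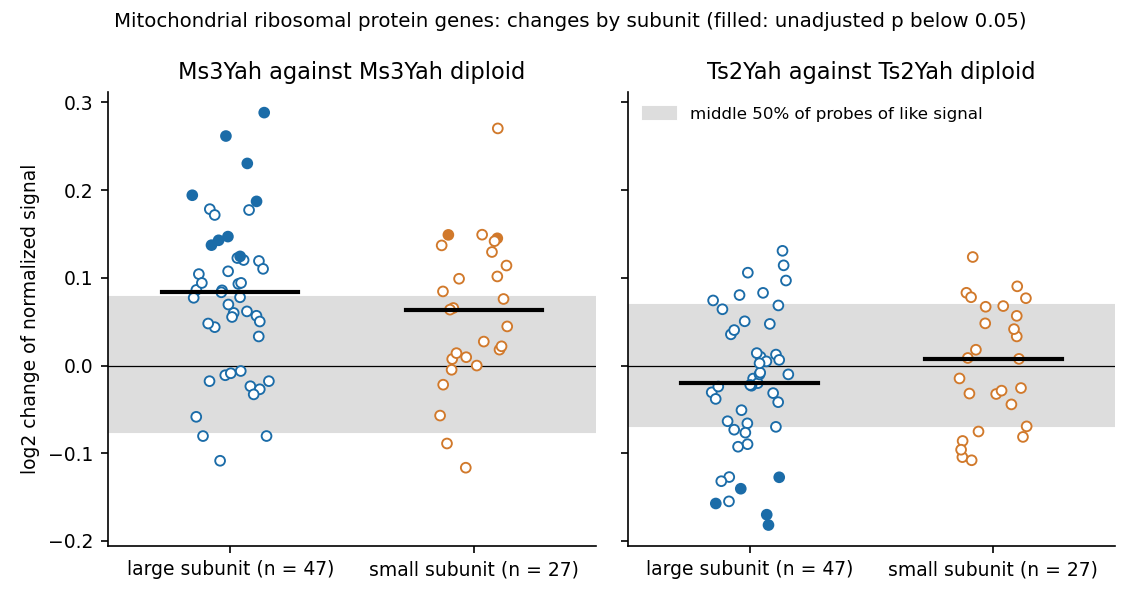
Log2 change of each member gene (points) in Ms3Yah (left) and Ts2Yah (right) mice against diploid littermates, split into 47 large-subunit and 27 small-subunit genes. Filled points have an unadjusted p below 0.05, black bars are medians, and the grey band holds the middle 50% of expressed probes of like signal; in Ms3Yah the medians are 0.084 and 0.064, in Ts2Yah -0.020 and 0.0076.

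Ms3Yah muscle carried slightly more signal from most mitochondrial ribosomal protein genes than diploid muscle did. The median change over the 74 members was 0.077 on the log2 scale, with 56 members above 0 and 18 below. Over all 44363 expressed probes the median was -2.9e-05, with 22164 above 0 and 22199 below. Quantile normalisation, which gives every array 1 distribution, holds that median near 0. At an unadjusted p below 0.05, limma counted 11 members higher and 0 lower, and the methods' t-test, which takes each probe's spread on its own, 9 and 0. Among all expressed probes 2.71% were higher and 2.46% lower at that threshold, and among those detected on at least 5 arrays 4.05% and 3.54%. After adjustment no member passed (lowest adjusted p = 0.51), beside 0.00225% of expressed probes higher and 0.0158% lower. In whole muscle, a different share of cells of a type and a different amount of RNA per cell cannot be told apart. Adipocyte markers differed widely among the mice of this line, with summed signals of 676.9 to 4916 in Ms3Yah mice and 860.5 to 6022 in diploid mice (3 of the 5 listed genes were detected on all arrays). With the log2 of that sum as a covariate, an alternative chosen after seeing the data, the members' median was 0.055, with 8 higher and 1 lower.

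The size of this shift depended on how the arrays were scaled. Quantile normalisation gave the values above. Scaling each array to its median instead left 44 members above 0 and 30 below, with a median of 0.020. Expressed probes of like signal, that is between the members' lower and upper quartile, moved down with them under that scaling, to a median of -0.063 against -0.0011 under quantile normalisation. The members' median therefore stood above that of probes of like signal by 0.083 with median scaling and by 0.078 with quantile normalisation.

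Both subunits had most of their genes above 0 in Ms3Yah muscle. Of the large-subunit genes 35 of 47 were above 0, with a median change of 0.084, and 9 were higher at the unadjusted threshold. Of the small-subunit genes 21 of 27 were above 0, with a median of 0.064, and 2 were higher. Symbols do not fully follow structure, since the proteins of Mrps18a and Mrps30 sit in the large subunit despite their names. Moving these 2 genes gave a large subunit of 49 genes with 37 above 0, a median of 0.084 and 10 higher, and a small subunit of 25 genes with 19 above 0, a median of 0.045 and 1 higher.

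The member with the smallest p in Ms3Yah muscle was Mrpl46, a protein of the central protuberance, the part of the large subunit that faces the head of the small one. Its signal ran from 1230 over a median of 1309 to 1449 in Ms3Yah mice, against 960 over 1094 to 1251 in their diploid littermates. All 6 Ms3Yah mice lay above the diploid mean, and only the upper end of the diploid range reached into theirs. The means were 1323 ± 77.1 in Ms3Yah and 1107 ± 110.7 in diploid mice (SD, n = 6 each), a 1.20-fold difference (log2 change 0.26, SE 0.063, unadjusted p = 0.0012, adjusted p = 0.51).

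Mrpl15, which has a counterpart in the bacterial large subunit, was the only member whose Ms3Yah and diploid mice did not overlap, which was so above for 0.158% and below for 0.126% of expressed probes. Ms3Yah mice gave 2030, 2131 and 2413 as lowest, median and highest signal, against 1684, 1960 and 2010 in diploid mice. The gap between the groups was small beside their spread, and 1 diploid mouse lay well below the other 5. The log2 change was 0.19 (SE 0.054, adjusted p = 0.78). Mrpl15 had 5 probes detected on every array, whose changes ran from 0.014 to 0.24, all above 0.

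Mrpl4, the counterpart of a bacterial protein lining the tunnel through which the new chain leaves, had signals of 459, 551 and 619 (lowest, median, highest) in Ms3Yah mice, against 395, 468 and 507 in diploid mice. The groups overlapped, with 5 of 6 Ms3Yah mice above the diploid mean. Its log2 change was 0.23 (SE 0.077, adjusted p = 0.86). Mrpl16, another large-subunit protein with a bacterial counterpart, had 656, 687 and 877 in Ms3Yah mice and 580, 621 and 684 in diploid mice. Most of its range in Ms3Yah came from 1 mouse, and its log2 change was 0.19 (SE 0.067, adjusted p = 0.90).

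Mrps22, a small-subunit protein with no bacterial counterpart, had signals of 486, 562 and 629 in Ms3Yah mice, against 468, 510 and 518 in diploid mice. The lower part of its Ms3Yah range lay within the diploid range (log2 change 0.15, SE 0.053, adjusted p = 0.90). The largest 2 changes were those of Mrpl47 (0.29, SE 0.10) and Mrps27 (0.27, SE 0.16). Mrpl47 overlapped between groups, at 603, 772 and 955 in Ms3Yah mice and 558, 608 and 696 in diploid mice, and its other probe detected on every array had a change of 0.055. The remaining members higher at the unadjusted threshold were Mrpl2, Mrpl17, Mrps18a, Mrpl54 and Mrpl9, with changes of 0.12 to 0.15.

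Members below 0 in Ms3Yah muscle stayed close to it. Mrps12, a protein of the decoding centre, had a log2 change of -0.12 (SE 0.090, unadjusted p = 0.22) and Mrpl11, at the base of the factor-binding stalk, one of -0.11 (SE 0.055, unadjusted p = 0.072). Mrpl23 and Mrpl52 both had -0.080. Mrps14 and Mrpl32 were also among those below, but were detected on only 2 of the 12 arrays of this line. Of the 69 members detected on all 12 arrays, 56 were above 0 and 13 below.

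**Figure D2:**
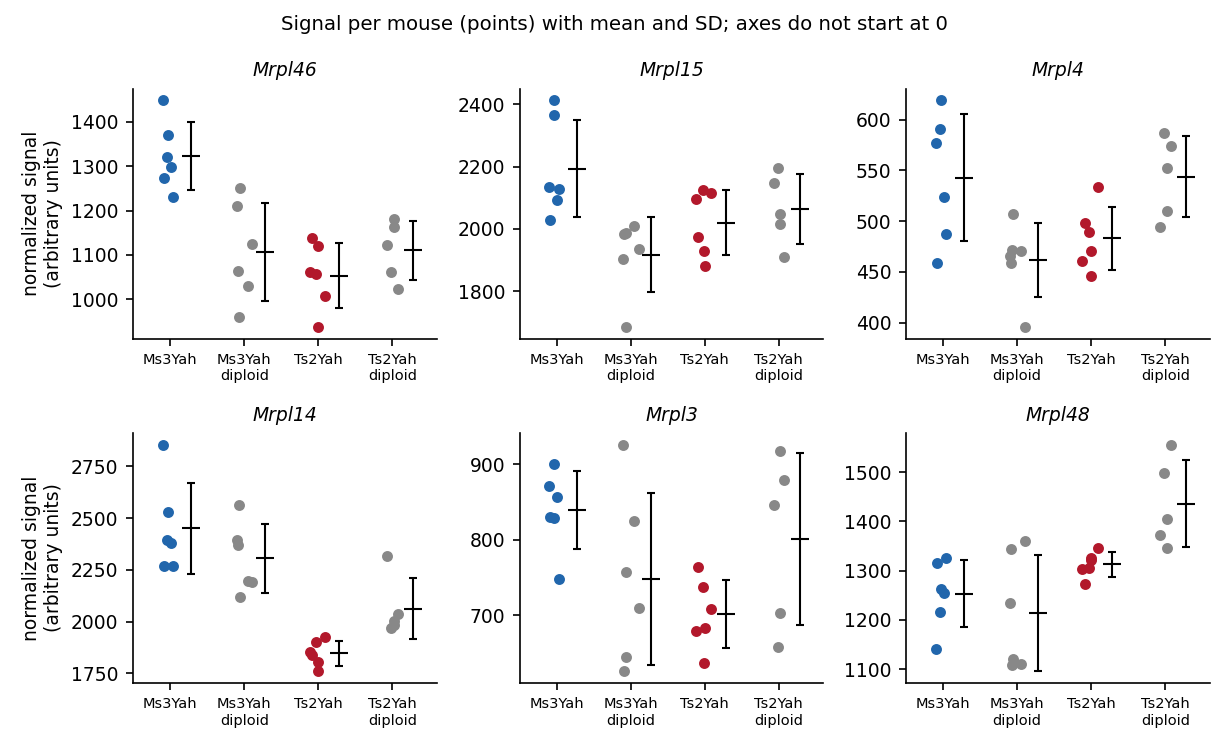
Normalised signal (arbitrary units, axes not from 0) of 6 members of the large subunit in each mouse (points), with the mean and SD of each genotype. Mrpl46 and Mrpl15 stand higher in Ms3Yah mice, Mrpl14 and Mrpl48 lower in Ts2Yah mice, and the means of Mrpl4 and Mrpl3 are higher in Ms3Yah and lower in Ts2Yah mice than in diploid littermates.

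In Ts2Yah muscle the family median lay near 0. It was -0.015, with 33 members above 0 and 41 below, beside a median of -0.00033 over all 43917 expressed probes (21844 above 0, 22073 below). Quantile normalisation holds the latter near 0 in this line too, and probes of like signal had a median of 0.0050. With median scaling 25 members were above 0 and 49 below, with a median of -0.034, while probes of like signal had -0.021. At an unadjusted p below 0.05, limma counted 0 members higher and 5 lower, and the methods' t-test 0 and 4. Among all expressed probes 2.74% were higher and 2.81% lower, and among those detected on at least 5 arrays 4.29% and 4.56%. No member passed after adjustment (lowest adjusted p = 0.80), beside 0.00455% of expressed probes higher and 0% lower.

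All 5 of the lower genes belonged to the large subunit, which holds 47 of the 74 members. The large-subunit median was -0.020, with 19 of 47 genes above 0, and the small-subunit median was 0.0076, with 14 of 27 above 0. The sign of the small-subunit median turned with median scaling, to -0.024. Moving Mrps18a and Mrps30 to the large subunit left both medians as they were.

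Mrpl14, which lies where the 2 subunits meet, had signals of 1759, 1844 and 1927 (lowest, median, highest) in Ts2Yah mice. Their 5 diploid littermates had 1968, 1984, 2005, 2037 and 2319. No Ts2Yah mouse reached any diploid mouse, which was so below for 0.276% and above for 0.262% of expressed probes, and Mrpl14 was the only such member. The means were 1847 ± 61.4 (SD, n = 6) in Ts2Yah and 2063 ± 145.5 (SD, n = 5) in diploid mice, a log2 change of -0.16 (SE 0.045, adjusted p = 0.80).

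Mrpl48, like Mrpl46 a protein of the central protuberance, had 1272, 1314 and 1347 in Ts2Yah mice. Its diploid littermates had 1347, 1372, 1405, 1499 and 1556, so that the groups touched at 1 value without crossing. The log2 change was -0.13 (SE 0.040, adjusted p = 0.81), and 2 further probes of the gene detected on every array had changes of -0.19 and -0.14.

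Mrpl4 had 446, 480 and 534 in Ts2Yah mice, against 495, 510, 552, 574 and 587 in diploid mice (log2 change -0.17, SE 0.056, adjusted p = 0.83). Every Ts2Yah mouse was below the diploid mean, although the ranges overlapped. Mrpl58 encodes a hydrolase that releases the chain from stalled ribosomes. It had 228, 257 and 269 in Ts2Yah mice and 255, 263, 284, 288 and 305 in diploid mice (log2 change -0.14, SE 0.057, adjusted p = 0.88).

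Mrpl3, whose bacterial counterpart reaches towards the peptidyl transferase centre, had 637, 695 and 764 in Ts2Yah mice, against 657, 703, 846, 879 and 918 in diploid mice. The diploid mice were split, with 2 low and 3 high, and the Ts2Yah mice lay around the low ones (log2 change -0.18, SE 0.084, adjusted p = 0.90). On the positive side, Mrpl43 had the largest change (0.13, SE 0.078), followed by Mrps10 (0.12, SE 0.070), Mrpl47 (0.11, SE 0.15), Mrpl21 (0.11, SE 0.087) and Mrpl52 (0.097, SE 0.061). None of these had an unadjusted p below 0.05, and the first 2 hung on single diploid mice: Mrpl43 had 0.085 without mouse 34723 and 0.20 without mouse 34731, and Mrps10 had 0.19 and 0.084 without the same mice. Mrps16 followed on that side by p (0.067, SE 0.042, unadjusted p = 0.13), and Mrpl18 had a negative change (-0.15, SE 0.14) with a wide error.

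The changes varied among members by about as much in both lines. Their SD over the 74 genes was 0.087 in Ms3Yah and 0.076 in Ts2Yah, and the ranges were -0.12 to 0.29 and -0.18 to 0.13. Expressed probes of like signal had larger SDs, of 0.15 in Ms3Yah and 0.14 in Ts2Yah. Probes of 1 gene often disagreed: over the 26 genes with several probes detected on every array, the median range between probes was 0.096 in Ms3Yah and 0.076 in Ts2Yah. A range and an SD are unlike measures, so these values do not rank the spread between probes against that between genes. In Ms3Yah, 16 of these genes had all such probes above 0 and 3 had all below; in Ts2Yah, 6 had all above and 12 had all below. The widest ranges in Ms3Yah were those of Mrpl47, Mrpl15 and Mrpl49, whose 4 probes ran from -0.040 to 0.16. Counted by mice, 9 members had all 6 Ms3Yah mice above the diploid mean and 1 had none above. In Ts2Yah 2 members had all 6 mice above and 6 had none. How many of all expressed probes do the same was not counted, so whether these counts are unusual cannot be told. Over all 130 member probes, 94 were above 0 and 20 higher in Ms3Yah, and 57 were above 0 and 9 lower in Ts2Yah. These counts take 33 genes by several probes each. Of all expressed probes 2.71% were higher in Ms3Yah and 2.81% lower in Ts2Yah, and of those detected on at least 5 arrays 4.05% and 4.56%.

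The members with the highest probe signals were Mrpl33, Mrpl23, Mrps24, Mrpl42 and Mrpl53. None of them had an unadjusted p below 0.05 in either line. Signals of different probes are not comparable as amounts of RNA, so this order says nothing of which protein is made most.

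The shift in Ms3Yah muscle was uneven among the mice. For each mouse, the median over the 74 members of its deviation from the diploid mean of its line was taken. In Ms3Yah mice these medians were 0.157 (mouse 37038), 0.122 (37074), 0.072 (37039), 0.024 (37448), 0.019 (37072) and -0.0020 (37148). In their diploid littermates they lay between -0.017 and 0.030. The 3 highest Ms3Yah mice were thus above every diploid mouse, and the 3 others lay within the diploid range. Mouse 37038 had 64 of 74 members above the diploid mean, mouse 37074 had 53 and mouse 37148 had 36. Per mouse, the median over all expressed probes stayed between -0.0047 and 0.0013. Quantile normalisation holds that median near 0 in every mouse, so it does not show whether an array shifted as a whole. Probes of like signal were not followed by mouse.

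In mouse 37038 both subunits were high, at 0.156 for the large and 0.170 for the small subunit. In mouse 37074 the large subunit had 0.130 and the small subunit 0.034. The large-subunit median minus the small-subunit median ran from -0.032 to 0.096 in Ms3Yah mice, against -0.044 to 0.077 in diploid mice, so that these ranges overlapped for most of their length. Adipocyte markers were lower in the 3 high Ms3Yah mice than in the 3 others. Among the 3 high mice they did not fall as the family medians rose. Their summed signals were 1092 (mouse 37038), 754.9 (37074) and 676.9 (37039) in the 3 high Ms3Yah mice, and 4080 (37448), 4090 (37072) and 4916 (37148) in the 3 others, against 860.5 (37146), 3185, 3503, 3656, 5961 and 6022 in diploid mice. The diploid mouse with the low sum, 37146, had a family median of 0.011, inside the range of the other diploid mice. Summed signals of 4 slow-fibre genes were 30080, 30350 and 19420 in the 3 high mice and 61270, 15520 and 30710 in the others, against 15060 to 45500 in diploid mice. The part of these cells in the spread among mice was not tested. Without mouse 37038 the members' median change was 0.057, without mouse 37074 it was 0.056, and without mouse 37148 it was 0.095.

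**Figure D3:**
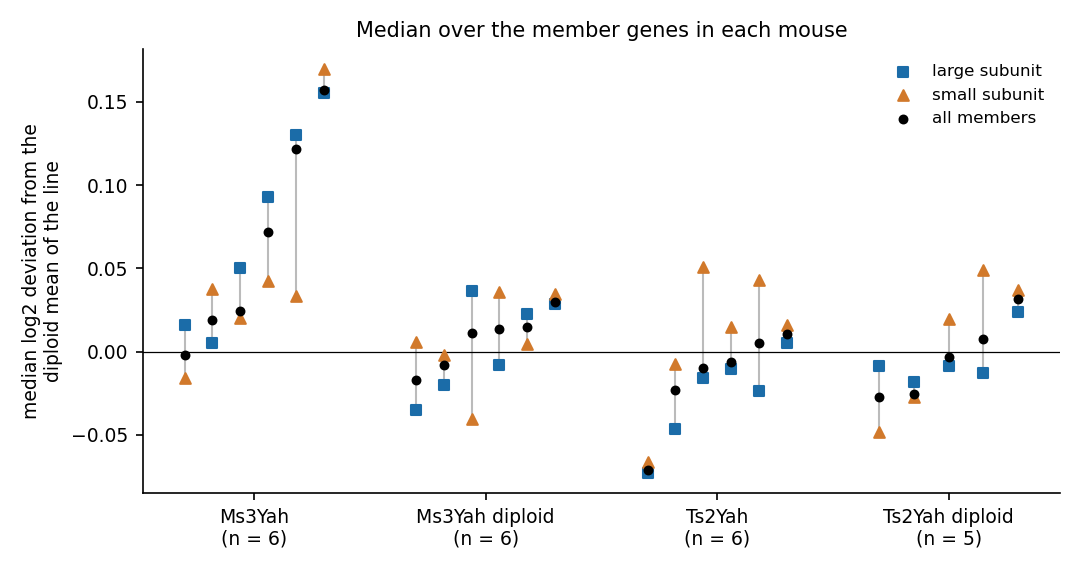
Median log2 deviation from the diploid mean of the line, over all 74 members (circles), the large subunit (squares) and the small subunit (triangles), 1 column per mouse in order of the overall median. Ms3Yah mice spread from -0.0020 to 0.157, diploid littermates from -0.017 to 0.030, Ts2Yah mice from -0.071 to 0.011 and theirs from -0.028 to 0.032.

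Ts2Yah mice had medians of 0.011, 0.0050, -0.0065, -0.0097, -0.023 and -0.071, against -0.028, -0.026, -0.0036, 0.0073 and 0.032 in diploid mice. Mouse 34725 alone lay below the diploid range, with 24 of 74 members above the diploid mean, its summed slow-fibre signal was 45890 in a range of 13660 to 65500, and its summed adipocyte signal of 1100 was the highest of the Ts2Yah mice (755.8 to 1100, against 560.9 to 1826 in diploid mice). Without it the family median was 0.00013. The large-subunit median was below the small-subunit median in all 6 Ts2Yah mice, by 0.0064 to 0.067, and in 3 of the 5 diploid mice, where the difference ran from -0.062 to 0.040.

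Members varied together from mouse to mouse only weakly. After each group's mean was removed, the correlation between 2 members over the 23 mice averaged 0.084 over 2346 pairs of the 69 always-detected genes, and 63.2% of pairs were positive. The average over all pairs of 13006 always-detected probes was 0.0059. Pairs within the large subunit averaged 0.097, pairs within the small subunit 0.053 and mixed pairs 0.083. The members most like the rest were Mrpl38 (r = 0.66 with the mean of the others), Mrpl35 (0.65) and Mrps16 (0.62), and the least like was Mrps33 (-0.25). These correlations are descriptions over arrays that share 1 normalisation.

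The design allows each line's change to be set against the other, since the lines carry opposite copy numbers of the same segment and do not share diploid mice. Of the 74 members, 32 (43.2%) were above 0 in Ms3Yah and below 0 in Ts2Yah, as were 25.4% of all expressed probes. The product of each line's own share of members, above 0 in Ms3Yah and below 0 in Ts2Yah, is 41.9%, so this count follows from the counts already given for each line and does not show that the same members had opposite changes. A further 24 were above 0 in both lines, 9 below in both, and 9 below in Ms3Yah and above in Ts2Yah. Across the 74 genes, which are not independent, the changes of the lines correlated at r = -0.15 (Spearman rho = -0.12).

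**Figure D4:**
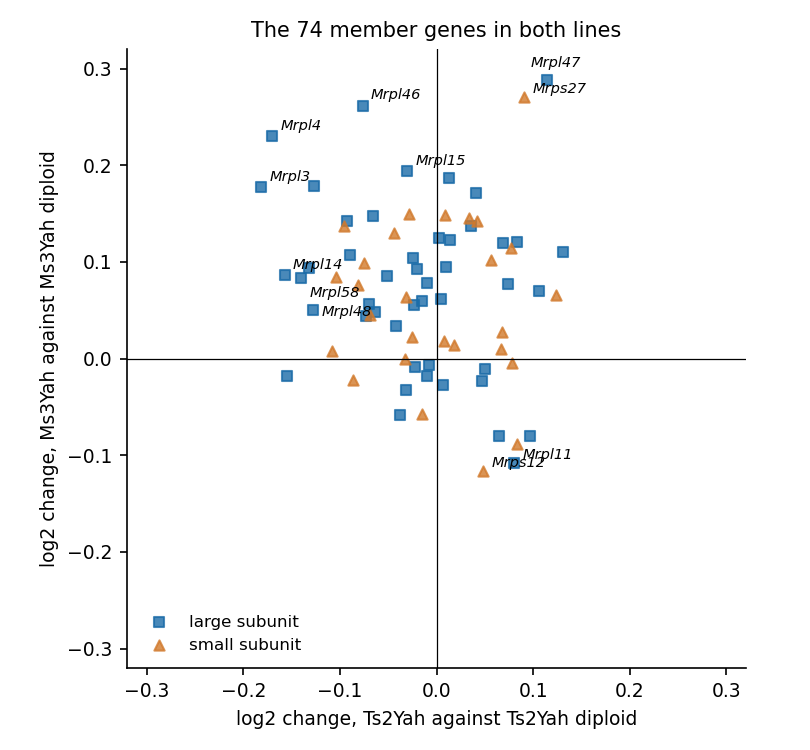
Log2 change of each of the 74 members in Ms3Yah mice (vertical axis) and in Ts2Yah mice (horizontal axis), each against diploid littermates, with large-subunit genes as squares and small-subunit genes as triangles. The upper left field, with a positive Ms3Yah and a negative Ts2Yah change, holds 32 genes, and Mrpl4, Mrpl3 and Mrpl46 lie farthest into it.

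The change in Ms3Yah minus the change in Ts2Yah was tested for each member in 1 fit over the 4 groups. Its median was 0.086, with 54 members above 0 and 20 below; it was 0.11 in the large subunit (36 of 47 above 0) and 0.048 in the small subunit (18 of 27 above 0). At an unadjusted p below 0.05, 12 members had a higher and 2 a lower change in Ms3Yah, where 3.06% of expressed probes had a higher and 2.68% a lower one (4.22% and 3.49% of those detected on at least 5 arrays). No member passed after adjustment (lowest adjusted p = 0.31), beside 0.00464% of expressed probes upward and 0.0232% downward. Of the 12, 11 were of the large subunit, which holds 47 of the 74 members. The other was Mrps7, a protein of the head of the small subunit.

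Mrpl4 had the largest difference, 0.40 (SE 0.10, adjusted p = 0.31), from 0.23 in Ms3Yah and -0.17 in Ts2Yah. Mrpl46 had the next smallest p, with a difference of 0.34 (SE 0.087, adjusted p = 0.35), most of it from Ms3Yah, since its change was 0.26 there and -0.077 in Ts2Yah. Mrpl15, Mrpl14 and Mrpl58 had differences of 0.22, 0.24 and 0.22 (adjusted p of 0.60 each). Mrpl3 differed by 0.36 (SE 0.13, adjusted p = 0.71): every Ms3Yah mouse lay above and every Ts2Yah mouse below the diploid mean of its line. A second probe of Mrpl3 detected on every array had changes of 0.26 in Ms3Yah (SE 0.063) and -0.17 in Ts2Yah (SE 0.070). The 2 members with a lower change in Ms3Yah were Mrpl11, at -0.19 (SE 0.073), and Mrps14, which was detected on 6 of 23 arrays.

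Of the 74 members, 3 differed between the diploid mice of the lines after adjustment. Mrps7 was higher in Ts2Yah diploid than in Ms3Yah diploid mice by 0.28 (SE 0.062, adjusted p = 0.016), with 2112, 2288, 2341, 2413 and 2450 in Ts2Yah diploid mice against 1655, 1936 and 2067 as lowest, median and highest in Ms3Yah diploid mice. These ranges did not overlap. Mrpl48 was higher by 0.25 (SE 0.054, adjusted p = 0.015), and Mrpl11 was lower by 0.28 (log2 change -0.28, SE 0.053, adjusted p = 0.0055). Mrpl11 had 563, 570, 621, 634 and 659 in Ts2Yah diploid mice, against 675, 738 and 808 in Ms3Yah diploid mice, without overlap. How many of all expressed probes do not overlap between these 2 diploid groups was not counted, so non-overlap here does not single out Mrps7 and Mrpl11. After adjustment 1.56% of expressed probes were higher and 1.24% lower in this comparison. Of the 20034 detected on at least 5 arrays, 633 were higher and 501 lower after adjustment. Without adjustment 8.97% and 7.38% of expressed probes were (14.3% and 11.5% of those detected on at least 5 arrays), beside 9 and 6 of the 74 members. Line and array batch cannot be told apart here, and all 3 calls were lost with median scaling and with the authors' normalised values. The call of Mrpl48 was also lost without Ts2Yah diploid mouse 34925 (adjusted p = 0.053). Summed adipocyte signals were 560.9 to 1826 in Ts2Yah diploid and 860.5 to 6022 in Ms3Yah diploid mice, and with them as a covariate Mrpl11 alone passed (adjusted p of 0.083 for Mrps7 and 0.12 for Mrpl48).

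Of the 2 genes left out by the rule, Mrpl39 lies inside the rearranged segment and encodes a large-subunit protein. It had signals of 94.7, 103.5 and 114.1 in Ms3Yah mice against 113.8, 120.5 and 127.8 in diploid mice, a log2 change of -0.21 (SE 0.047, adjusted p = 0.50). In Ts2Yah mice it had 121.2, 125.5 and 131.4 against a diploid range of 108.0 to 123.1, a change of 0.15 (SE 0.040, adjusted p = 0.76). Every Ms3Yah mouse lay below and every Ts2Yah mouse above the diploid mean of its line, and the change in Ms3Yah was lower than that in Ts2Yah by a tested difference of -0.36 (SE 0.063, adjusted p = 0.036). The probe was detected on 22 of 23 arrays, and its signals lay near background. The raw signals were not background-subtracted, so the sizes of these log2 changes do not give the sizes of the changes in RNA. The study reports that segment genes, Mrpl39, Gabpa and Nrip1 among them, changed broadly in step with copy number in both lines. Mrps6, outside the segment, had changes of -0.13 in Ms3Yah and 0.11 in Ts2Yah that did not pass adjustment.

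Other parts of the mitochondrial translation system were read from lists of genes chosen by function. Their counts stand beside the same 2.71% higher and 2.46% lower of expressed probes in Ms3Yah, and 2.74% and 2.81% in Ts2Yah, and no gene of theirs passed adjustment in either line. Of 6 mitoribosome proteins without an Mrp symbol 4 were measured, all above 0 in Ms3Yah (median 0.12), and 2 of them were higher at the unadjusted threshold. Dap3, a GTP-binding protein of the small subunit, had 2726, 2819 and 3097 in Ms3Yah mice against 2472, 2577 and 2728 in diploid mice, ranges that met only at their ends (log2 change 0.15, SE 0.038, adjusted p = 0.69). Ptcd3, also of the small subunit, had a change of 0.23 in Ms3Yah (SE 0.091). In Ts2Yah 1 of the 4 was above 0 and none had an unadjusted p below 0.05.

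Of 13 translation factors 12 were measured. In Ms3Yah 10 were above 0 (median 0.079), with Gfm1, an elongation factor, at 0.19 (SE 0.080) and Mrrf, the ribosome recycling factor, at 0.14 (SE 0.057) higher at the unadjusted threshold. In Ts2Yah 3 were above 0 (median -0.058), and Gfm1 was the one lower, at -0.19 (SE 0.078). The difference between lines for Gfm1 was 0.38 (unadjusted p = 0.0041, adjusted p = 0.54), and its 6 Ts2Yah mice ran from 227 to 327 against 288 to 335 in diploid mice. Of 25 genes for assembly and ribosomal RNA modification 23 were measured, with 18 above 0 in Ms3Yah (median 0.064) and 7 in Ts2Yah (median -0.0097). Oxa1l, which inserts new proteins into the inner membrane, had changes of 0.23 in Ms3Yah (SE 0.095) and 0.024 in Ts2Yah (SE 0.10) by its brightest probe over all arrays. Another probe had 0.24 in Ms3Yah (SE 0.11) and -0.22 in Ts2Yah (SE 0.076), so the probes differed in Ts2Yah. That second probe was the brightest in the Ts2Yah line, and by it Oxa1l was the 1 gene of this list lower there at the unadjusted threshold. Grsf1, an RNA-binding protein of mitochondrial RNA granules, had 0.17 in Ms3Yah (SE 0.075). Between the diploid mice of the lines, Gfm1, Mrrf and Mtrf1, a release factor, were higher in Ts2Yah diploid than in Ms3Yah diploid mice by 0.32, 0.25 and 0.31 (adjusted p of 0.047, 0.025 and 0.038), as were 1.56% of expressed probes. Of the 20034 probes detected on at least 5 arrays, 633 were higher after adjustment. All 3 calls were lost with median scaling (adjusted p of 0.22, 0.25 and 0.056) and with the authors' normalised values, and each was lost without some single diploid mice (adjusted p up to 0.13, 0.072 and 0.11).

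Among 18 regulators of nuclear and mitochondrial transcription, all measured, 12 were above 0 in Ms3Yah and 9 in Ts2Yah, and 2 were higher and 2 lower in Ms3Yah at the unadjusted threshold, beside 2.71% and 2.46% of expressed probes. Ppargc1a encodes PGC-1alpha, a coactivator that drives mitochondrial biogenesis in muscle. Its signals in Ms3Yah mice were 214.1 to 294.6 with a median of 230.6, against 174.9 to 205.1 with a median of 188.7 in diploid mice. The groups did not overlap, which was so above for 0.158% and below for 0.126% of expressed probes. By mouse the Ppargc1a signals in Ms3Yah were 294.6 (37038), 262.8 (37074), 240.2 (37072), 220.9 (37039), 216.7 (37448) and 214.1 (37148). Mice 37038 and 37074 were the highest and mouse 37148 the lowest both in this order and in that of the family medians. The orders differed in the others: mouse 37072 stood above 37039 and 37448 here, and below them by family median (0.019 against 0.072 and 0.024). The log2 change was 0.33 (SE 0.076, unadjusted p = 0.00086, adjusted p = 0.51). In Ts2Yah mice Ppargc1a ran from 155.7 to 224.1, against 152.1 to 239.4 in diploid mice, with full overlap.

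Esrra, a nuclear receptor that works with this coactivator, had changes of 0.22 in Ms3Yah and -0.19 in Ts2Yah, a difference of 0.41 (unadjusted p = 0.0026, adjusted p = 0.48). Lrpprc, which stabilises mitochondrial messages, had a change of -0.23 in Ts2Yah (unadjusted p = 0.015). The 2 regulators lower in Ms3Yah, Gabpa (-0.13, SE 0.053) and the corepressor Nrip1 (-0.10, SE 0.046), both lie inside the rearranged segment. Their probes were detected on 11 and 18 of 23 arrays. As for Mrpl39, the sizes of these changes do not give the sizes of the changes in RNA. The part of these regulators in the changes of the members was not tested.

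The members were then split by the CCGGAAG core described above. In Ms3Yah 19 of 26 members with a copy were above 0 (median 0.049), of which 3 were higher at the unadjusted threshold, against 29 of 39 without one (median 0.076), of which 5 were higher. In Ts2Yah 18 of 26 with a copy were above 0 (median 0.026) against 13 of 39 without (median -0.029). At the unadjusted threshold 3 genes with a copy and 1 without were lower in Ts2Yah. Of all expressed probes detected on at least 5 arrays, 4.05% were higher in Ms3Yah and 4.56% lower in Ts2Yah. With so few genes called, the counts at the unadjusted threshold do not separate members with a copy from those without. By direction the sets did differ in Ts2Yah, with 18 of 26 and 13 of 39 above 0, and this difference was not tested. The groupings by motif carry no test, and a letter match is not a binding site.

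Other motifs were searched in the same way on both strands. AAGATGGC, read by YY1, was in 12 of the 65 members with a promoter (18.5%), in 2.75% of all promoters and in 3.57% of protein-coding genes. GCATGCGC, read by NRF1, was in 7 members (10.8%), against 2.71% of promoters and 3.94% of coding genes. AAGGTCA, the element of Esrra and its relatives, was in 4 members (6.15%), against 4.72% of promoters and 4.73% of coding genes. CCAAT was in 24 members (36.9%), against 37.4% of promoters and 42.3% of coding genes. A gene with several promoters counts once if any of them holds the motif. In Ms3Yah the 7 members with GCATGCGC had a median change of 0.094 and the 58 without 0.065, and the 12 with AAGATGGC had 0.069 against 0.066 for the 53 without.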

How the data were processed

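Total RNA of gastrocnemius, 1 array per mouse, had been labelled as biotinylated cDNA and hybridised to Illumina MouseWG-6 v2.0 BeadChips (23 arrays). The deposited probe intensities are raw signals, neither background-subtracted nor normalised (lowest 66.7; array medians 84.7 to 102), and beside each the authors deposited a detection p-value. The scanner software is not given in the sources used here. The authors' normalised intensities served as an alternative: set against the raw signals they are linear, quantile-normalised and background-subtracted by a method that stays unknown, 37.9% lie below 1 (raised to 1 before logs), and the array medians were 3.82, 3.82, 3.83, 3.83, 3.83 and 3.83 in Ts2Yah, 3.83, 3.83, 3.82, 3.85 and 3.84 in Ts2Yah diploid, 3.83, 3.84, 3.85, 3.81, 3.83 and 3.83 in Ms3Yah, and 3.84, 3.82, 3.82, 3.84, 3.82 and 3.83 in Ms3Yah diploid mice.

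The raw signals of all 23 arrays were brought to 1 distribution by quantile normalisation, and log2 values were taken. Probes above the 35th percentile (89.8) on at least 1 array of a line were kept as expressed (44363 in Ms3Yah, 43917 in Ts2Yah, 43141 in both). For each line a separate limma model (lmFit, eBayes; limma 3.58.1, R 4.3.3) gave two-sided p-values, as in the study's methods, which compared each line with its own littermates. The difference between lines and the comparison of diploid mice came from 1 fit over 4 groups. All p-values were adjusted by Benjamini-Hochberg over all expressed probes. No source says that mice of a group differ other than as single animals, and their number limits the precision. Gene names came from the platform's annotation, updated through RefSeq (34885 probes name 1 gene, 18 several, 10378 none). The code was tested on simulated data.

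The members and lists were chosen with earlier results of these data known, and Mrps18a and Mrps30 were moved after their values had been seen. Genes were named by rule: adjusted p below 0.05, the 5 smallest p and the 5 largest changes in each direction and line, the 5 smallest p of the difference, the 5 brightest and 5 dimmest, the 3 whose probes differed most, and up to 4 of each other list with unadjusted p below 0.05. Alternatives were neqc, median scaling, the authors' normalised values, no filter, a filter on detection (at least 5 arrays), the mean of a gene's probes, all 4 groups in 1 fit, the Xist signal as a covariate, the log2 summed adipocyte marker signal as a covariate (chosen after seeing the data), the methods' t-test, and leaving out each mouse.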

Additional observations from a re-analysis of the deposited data

Results flagged for a closer look

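Mrpl39 was flagged because its change differed between the lines in a test of the difference itself, -0.359 for Ms3Yah minus Ts2Yah (adjusted p = 0.036). Mrpl3 was flagged because every Ms3Yah mouse lay above and every Ts2Yah mouse below the diploid mean of its line. The difference of 0.359 did not pass adjustment (adjusted p = 0.71). How many of all expressed probes meet the rule that flagged Mrpl3 was not counted.

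In 10 of 192 groups of 5 or 6 mice, 1 mouse stood far from the rest of its group, where chance marks about 1 in 20 groups. Mouse 37038 of Ms3Yah was such a mouse for Mrpl16 (877, next highest 717) and for the small-subunit median (0.170, next highest 0.042). In the other Ms3Yah mice this was so of Mrpl57 in mouse 37039 (127) and Mrps14 in mouse 37072 (85.4), both probes near background. Among Ms3Yah diploid mice, 37075 was low for Mrpl15 (1684, next lowest 1903) and 37146 high for Mrpl53 (4483, next highest 4126). Without mouse 37075 the non-overlap of Mrpl15 between Ms3Yah and diploid mice would still hold, since it was the lowest diploid value.

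In the Ts2Yah line, mouse 34730 was high for Mrpl43 (1578, next highest 1410), and mouse 34498 was low for Gabpa (89.0, next lowest 106.3), a probe near background. Diploid mouse 34923 was high for Mrpl14 (2319, next highest 2037), and the next diploid values remained above all Ts2Yah mice. Diploid mouse 34723 was high for the large-subunit median (0.024, next highest -0.0085).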

How the results depend on the processing

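No paired analysis was possible because the replicate numbers are mouse identifiers that no 2 groups share. Under every alternative, including each mouse left out, no member passed adjustment in Ms3Yah, Ts2Yah or the difference between lines, where unadjusted counts were 11 higher, 5 lower, and 12 higher with 2 lower. Median scaling left 1 member higher in Ms3Yah (median 0.0204; large subunit 0.0317, small 0.0011), 1 lower in Ts2Yah, 1 higher and 1 lower in the difference, and 0 lower and 0 past adjustment between diploid mice. The authors' normalised values left 1 higher in Ms3Yah, 0 lower in Ts2Yah, 4 higher and 1 lower in the difference, and 4 higher, 2 lower and 0 past adjustment between diploid mice. The mean of a gene's probes gave 14 higher between diploid mice, 1 fit of all groups gave 1 lower in Ms3Yah, and the Xist covariate gave 1 lower in Ms3Yah and 3 higher in Ts2Yah. The adipocyte marker covariate, chosen after seeing the data, gave 1 lower in Ms3Yah, 1 higher in Ts2Yah, and 2 higher and 1 past adjustment between diploid mice. The share of all expressed probes called under each alternative was not counted, and the cause of these moves was not tested. The 28 single-gene values kept their direction throughout; 9 of 639 fell below the threshold, all of them between diploid mice.

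Leaving out each mouse gave 8 (without Ms3Yah 37074) to 17 (without 37148) higher and 0 to 1 lower in Ms3Yah, with medians of 0.056 to 0.095. In Ts2Yah it gave 0 to 2 higher, 3 (without Ts2Yah 34725 or diploid 34723) to 7 lower, and medians of -0.022 to 0.00013. In the difference it gave 7 (without Ms3Yah diploid 37094) to 15 higher and 2 to 3 lower, and between diploid mice 7 to 13 higher, 4 to 7 lower and 2 to 4 past adjustment. In Ms3Yah the large-subunit median ran from 0.065 to 0.099 and the small from 0.029 (without 37038) to 0.083; in Ts2Yah, from -0.033 to -0.0062 and from -0.012 to 0.019. Signal over background limits Mrpl19, Mrpl32, Mrps14, Mrpl45 and Mrpl57, which were not detected on every array.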
